A study of Arabidopsis thaliana with 18 samples.

Results

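The transcripts described here belong to 7 loci of the Arabidopsis immune system: 6 that code for intracellular receptors or Toll/interleukin-1 receptor (TIR) domain proteins, and PROPEP2 (AT5G64890), the precursor of a defence peptide. They were chosen by their locus names, and they are read by 5 of the 22746 probe sets of the Affymetrix ATH1 array, because AT5G41740 shares a probe set with AT5G41750 and AT1G58807 shares one with AT1G59124. The loci that share a probe set cannot be told apart. AT5G41740 and AT5G41750 code for receptors with a TIR domain, a nucleotide-binding site (NBS) and leucine-rich repeats (LRR), AT1G58807 and AT1G59124 for NBS-LRR receptors with a coiled-coil (CC) domain in place of the TIR domain, AT1G59620 (CW9) for a further CC-NBS-LRR type protein, and AT1G72920 for a TIR domain protein. The study listed most of these loci because they rose in the same arrays after Rose Bengal, and PROPEP2 after hydrogen peroxide as well, so that the rises reported below describe the members and are not independent evidence that such genes respond.

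Light-grown Arabidopsis thaliana (Columbia ecotype) cell suspension cultures (ACSC), which hold chloroplasts but none of the tissues of a plant, were exposed for 30 min to photosensitizers that form singlet oxygen in the light, or to hydrogen peroxide. All groups came from wild-type cultures, with 3 biological replicates each: Rose Bengal (RB, 0.5 μM) and H2O2 (HP, 500 μM) with their own control arrays, and, with a second set of control arrays, Indigo Carmine (IC, 0.5 μM) and a dye that the study calls Methylene Violet and the labels Methyl Violet (MV, 0.5 μM). The labels give 30 min of high light or 1 h of darkness without saying which applies to which array, whereas the study describes light treatments. The questions asked of the members were whether they responded to RB and whether H2O2 gave the same response. A further question was whether the other dyes did so at the dose of RB.

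NBS-LRR receptors are the intracellular arm of plant immunity, which sense pathogen effectors or their action on host proteins. Receptors with a TIR domain signal through EDS1 and its partners PAD4 and SAG101 to the helper receptors of the ADR1 and NRG1 families, and overactive receptors trigger a hypersensitive cell death. The PROPEP genes code for precursors of the Pep peptides, which are released on cell damage, bind the surface receptor kinases PEPR1 and PEPR2, and amplify defence.

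All values are log2 signals as deposited after RMA, so that a difference of 1 is a 2-fold change. Array medians lay between 4.91 and 5.14. The lowest correlation between a pair of replicates (r = 0.964) and the widest spread around a group mean (0.399) belonged to the control arrays of the RB and HP set, against spreads of 0.257 to 0.333 in the other groups. RCA and LHCB4.1, the markers of green cells that could be read, had signals of 10.24 to 11.56 and 9.31 to 10.27, and the probe set that reads the pollen gene VGD1 had 2.84 to 3.25, where the lowest value of any probe set on an array was 2.43 to 2.59. The other 10 marker genes of green cells and of seeds, flowers and pollen had no named probe set. The control groups differed from each other in 7.47% of all probe sets, and none of the 5 members passed this test (limma, adjusted p from 0.147 to 0.835). The members' baselines were not all equal, however. The largest difference was that of PROPEP2, which was 0.77 higher in the control of RB and HP, with overlapping arrays. AT1G72920 was 0.55 higher there (limma, unadjusted p = 0.0299) and AT1G59620 was 0.48 higher. In both, every array of that control lay above every array of the other. The share of all probe sets with this order was not counted, while 12.7% had the opposite order. The probe set of AT1G58807 and AT1G59124 differed by 0.10 and that of AT5G41740 and AT5G41750 by −0.17, with overlapping arrays.

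RB raised 3 of the 5 member probe sets (limma, Benjamini-Hochberg adjusted p under 0.05), where 2.96% of all probe sets were called and 1.44% were called as higher. They were those of AT1G72920, of AT5G41740 and AT5G41750, and of AT1G58807 and AT1G59124. Of the 673 probe sets called, 48.7% were higher, and when the median of each array was subtracted 33.6% of 729 were, as the median change of all probe sets then went from 0.02 to −0.08 while the same number of members was called. H2O2 raised none of the 5 (1 had an unadjusted p under 0.05), with 0.813% of all probe sets called and 0.629% called as higher. MV and IC called no probe set of the array (0%), although 758 and 374 of them had an unadjusted p under 0.05, and also none when the replicate number was added to the fit as a block. With that block RB raised 5 of the 5 members, where 3.56% of all probe sets were called as higher. H2O2 then raised 1 of the 5, where 1.77% were called as higher. Not all of these added calls were kept when a replicate number was left out, as given below. RB and HP were compared with the same 3 control arrays, so that their changes are not independent of each other.

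**Figure D1:**
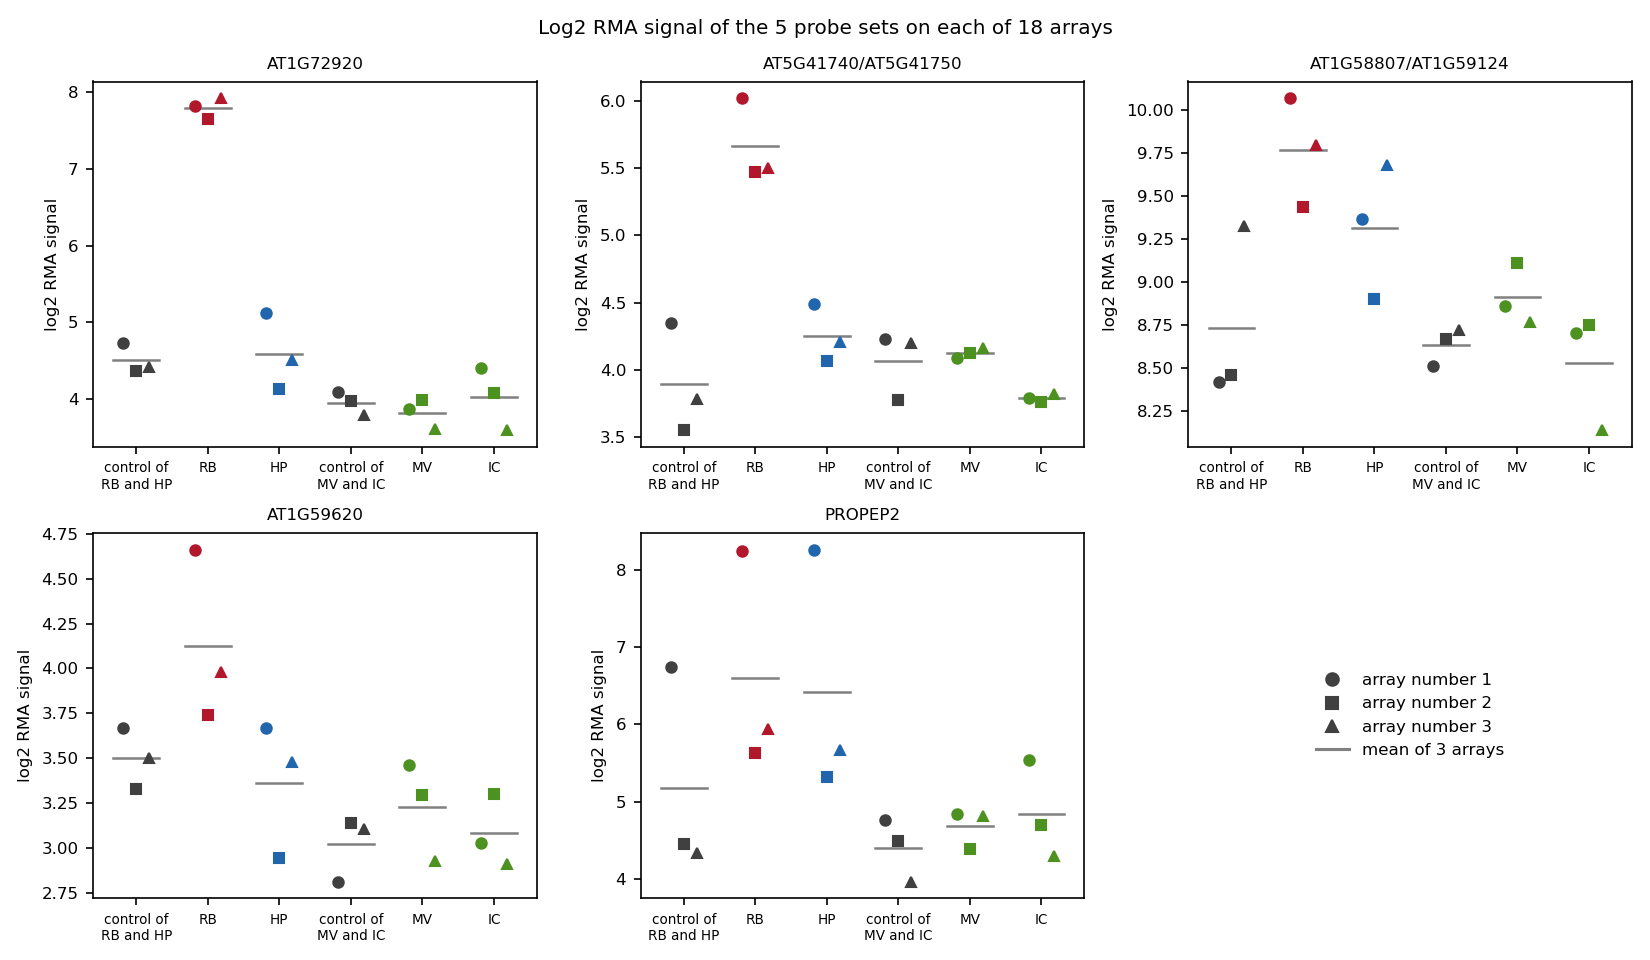
Log2 RMA signal (y axes) of each member probe set on the 18 arrays, by group (x axes). Each point is 1 array, its shape marks the array number, and the grey lines are means of 3 arrays. The RB arrays of AT1G72920 sit at 7.65 to 7.92 and all other arrays of that probe set at or below 5.12, whereas in PROPEP2 the arrays numbered 1 of the control, RB and HP lie above those numbered 2 and 3 in the same group.

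AT1G72920 gave the clearest response. Its signal was 4.73, 4.36 and 4.42 in the control, 7.81, 7.65 and 7.92 with RB and 5.12, 4.13 and 4.51 with HP. In the other set of arrays it was 4.09, 3.98 and 3.79 in the control, 3.87, 3.99 and 3.61 with MV and 4.41, 4.08 and 3.59 with IC. The RB arrays stood apart from the other 15, of which the highest was at 5.12. Its signals in both controls lay below the lowest array median of 4.91. RB raised the transcript by 3.29 on the log2 scale (SE 0.23, n = 3 arrays per group), a 9.78-fold change, with an adjusted p of 2.10e-06, rank 3 by p and rank 19 by the size of the rise among the 22746 probe sets. The change with HP was 0.08 (95% interval −0.41 to 0.57, adjusted p = 0.906), and −0.0295 when the median of each array was subtracted. RB exceeded HP directly by 3.21 (adjusted p = 1.13e-06), although the doses differ by design. In order of the group means, RB (7.79 ± 0.14, SD, n = 3) was followed by HP (4.59 ± 0.50), its control (4.50 ± 0.20), IC (4.03 ± 0.41), the control of MV and IC (3.95 ± 0.15) and MV (3.82 ± 0.19). After RB, the arrays of each group overlapped with those of the next in this order.

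The probe set of AT5G41740 and AT5G41750 followed with a smaller change. Its signal was 4.35, 3.55 and 3.78 in the control, 6.02, 5.47 and 5.50 with RB and 4.49, 4.07 and 4.21 with HP. It was 4.23, 3.78 and 4.20 in the control of MV and IC, 4.09, 4.12 and 4.16 with MV and 3.79, 3.76 and 3.82 with IC. All RB arrays lay above the other 15 arrays, and the HP arrays overlapped with their control. The signals in both controls lay below the lowest array median of 4.91. RB raised the signal by 1.77 (SE 0.20, adjusted p = 1.37e-04), a 3.41-fold change, and HP changed it by 0.36 (95% interval −0.06 to 0.78, adjusted p = 0.462). RB exceeded HP by 1.41 (adjusted p = 7.82e-04). After the RB group (5.66 ± 0.31), the means ran from 4.25 ± 0.22 with HP down to 3.79 ± 0.03 with IC.

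The CC-NBS-LRR probe set of AT1G58807 and AT1G59124 had signals of 8.42, 8.46 and 9.32 in the control, 10.07, 9.44 and 9.80 with RB and 9.37, 8.90 and 9.68 with HP. In the other set it had 8.51, 8.67 and 8.72 in the control, 8.86, 9.11 and 8.77 with MV and 8.70, 8.75 and 8.14 with IC. The RB arrays lay above the control arrays, while HP arrays overlapped with both groups. RB raised the signal by 1.04 (SE 0.26, adjusted p = 0.0385), a 2.05-fold change. This call was lost in 4 of 6 fits that left out an array, with values of 0.88 without RB replicate 1, 1.02 without RB replicate 3, 0.88 without control replicate 1 and 0.90 without control replicate 2 (adjusted p from 0.116 to 0.143), and also with array weights and with only the control and RB arrays in the fit (adjusted p = 0.0677 and 0.258). Over 14 alternatives the adjusted p ran from 0.00584 to 0.258. The change with HP was 0.58 (95% interval 0.04 to 1.13, adjusted p = 0.359), and it reached 0.88 (adjusted p = 0.0494) without control replicate 3, the highest control array. The step from HP to RB was 0.45 (adjusted p = 0.494), and its 95% interval ran from −0.09 to 1.00. The MV arrays all lay above their control arrays, as did those of 6.33% of all probe sets, with a change of 0.28 (adjusted p = 1.00).

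AT1G59620 had low signals throughout, 3.67, 3.33 and 3.50 in the control, 4.66, 3.74 and 3.98 with RB and 3.67, 2.95 and 3.48 with HP. They were 2.81, 3.14 and 3.11 in the control of MV and IC, 3.46, 3.30 and 2.93 with MV and 3.03, 3.30 and 2.91 with IC. The RB arrays lay above the control and the HP arrays. Among all probe sets, 7.41% had every RB array above the control and 11.7% every RB array above HP, and among the members these were 4 of 5 and 3 of 5. The share of all probe sets with every RB array above all other arrays was not counted. No member had every HP array above the control (6.01% of all probe sets) or every IC array above its control (5.87%). The change with RB was 0.63 (SE 0.23) and did not pass the test (adjusted p = 0.191). With the replicate number as a block the adjusted p was 0.0348, within a range of 0.00533 to 0.497 over 13 alternative fits, and 7.25% of all probe sets were called in that fit, 3.56% as higher. The call with the block was lost without replicate number 1, 2 or 3 (0.44, 0.73 and 0.70, adjusted p = 0.259, 0.105 and 0.0560). The change with HP was −0.14 (95% interval −0.63 to 0.36). RB minus HP was 0.76, with an adjusted p of 0.105 and of 0.0123 with the block (range over 12 alternatives 0.0123 to 0.391), and the block call was lost without number 1 or 2 (0.65 and 0.75, adjusted p = 0.0745 and 0.101).

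**Figure D2:**
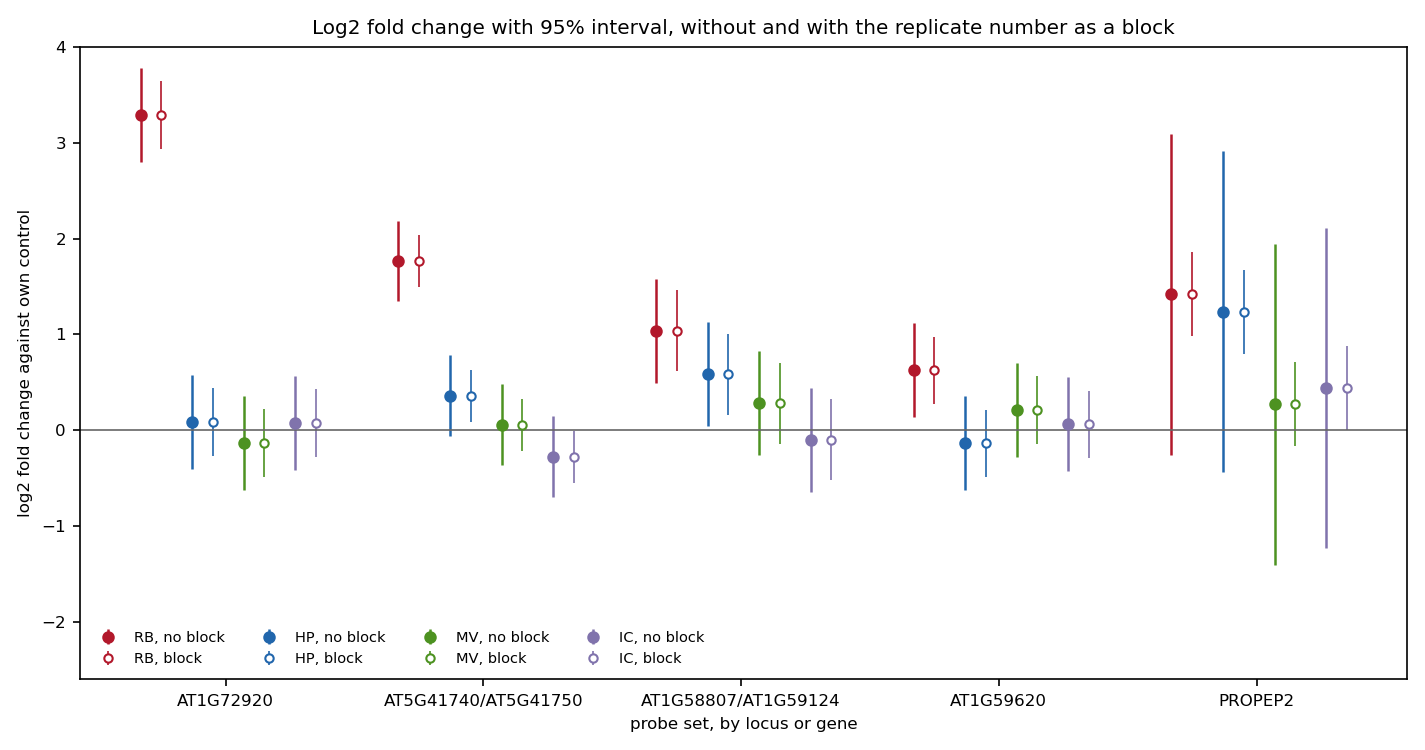
Log2 fold change (y axis) of each member probe set (x axis) after RB, HP, MV and IC against the control of its own set, with 95% intervals from limma, without (filled) and with (open) the replicate number as a block. The interval of AT1G72920 after RB without the block runs from 2.80 to 3.78, and those of PROPEP2 narrow with the block while its estimates stay at 1.42 with RB and 1.23 with HP.

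The PROPEP2 arrays varied widely by number, with SDs of 1.35 in the control, 1.43 with RB and 1.60 with HP. The signal was 6.75, 4.46 and 4.34 in the control, 8.24, 5.63 and 5.94 with RB and 8.26, 5.32 and 5.67 with HP. The array numbered 1 was the highest in each of these groups, as it was by smaller steps in AT1G59620 and in the probe set of AT5G41740 and AT5G41750, and the control array numbered 1 exceeded the RB and HP arrays numbered 2 and 3. Each treated array was, however, above the control array of its own number, by 1.50, 1.16 and 1.60 with RB and by 1.51, 0.86 and 1.33 with HP. In the fit without a block, the changes of 1.42 with RB (SE 0.79, adjusted p = 0.428) and 1.23 with HP (adjusted p = 0.528) did not pass the test. Leaving out single arrays moved them from 0.60 (without RB replicate 1) to 2.20 (without control replicate 1) and from 0.31 (without HP replicate 1) to 2.02 (without control replicate 1). With the replicate number as a block they did, with adjusted p-values of 0.00104 and 0.00588, which are the lowest over 14 alternatives each (highest 0.789 and 0.893). In that fit 2.37% of all probe sets were called with HP, 1.77% as higher, and the members called were 5 of 5 with RB and PROPEP2 alone with HP. Without replicate number 1, 2 or 3 the block fit called 3, 3 and 4 of the 5 with RB, as AT1G59620 was lost in each and the probe set of AT1G58807 and AT1G59124 without number 1 or 2 (adjusted p = 0.0711 and 0.0636). The titles of the control arrays name the treated arrays of the same number, but same-numbered arrays did not deviate together in every pair. When each replicate number was left out in turn from the fit with the block, an alternative added after the values were seen, PROPEP2 stayed called with RB (adjusted p from 0.0104 to 0.0153), and with HP without number 2 or 3 (0.0297 and 0.0464) but not without number 1 (1.09, adjusted p = 0.108). RB and HP arrays differed by only 0.19 (95% interval −1.49 to 1.86, adjusted p = 0.958), and by −0.01, 0.30 and 0.27 in the pairs numbered 1, 2 and 3.

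In the set of MV and IC, PROPEP2 had signals of 4.76, 4.50 and 3.97 in the control, 4.84, 4.39 and 4.81 with MV and 5.54, 4.71 and 4.30 with IC. The groups overlapped. The changes were 0.27 with MV (95% interval −1.40 to 1.95) and 0.44 with IC (−1.24 to 2.11).

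RB, MV and IC were given at the same dose of 0.5 μM. By the study's account, MV and IC have lower singlet oxygen yields than RB and do not enter chloroplasts. An equal dose is thus not an equal amount of singlet oxygen, and whether yield or location bears on the values was not tested. The effect of RB was compared with that of each other dye as a difference of differences. These were 10 comparisons of members in all, within fits adjusted over all probe sets. Most members were listed for their rise with RB in these arrays, so the differences describe them and are not independent evidence. The effect on AT1G72920 was larger with RB than with MV by 3.42 (SE 0.33, adjusted p = 1.54e-04) and than with IC by 3.22 (adjusted p = 3.26e-04). For AT5G41740 and AT5G41750 the differences were 1.71 (adjusted p = 0.0104) and 2.05 (adjusted p = 0.00274). These 2 of the 5 members were called in each comparison, where 0.374% and 0.615% of all probe sets were called, 0.299% and 0.374% in the direction of a higher RB effect. With the block these members alone were called as well, beside 1.34% (0.950% higher) of all probe sets against MV and 2.44% (1.39% higher) against IC. With only the arrays of the groups compared in the fit, the difference of AT5G41740 and AT5G41750 from MV lost its call (adjusted p = 0.0577). For AT1G58807 and AT1G59124, AT1G59620 and PROPEP2 the differences were between 0.42 and 1.15 and did not pass the test. That of AT1G58807 and AT1G59124 between RB and IC was 1.14 (adjusted p = 0.242), and 1.43 (adjusted p = 0.0450) without control replicate 3. MV and IC did not differ from each other in any member, with differences from −0.21 to 0.38 (adjusted p = 1.00), and no probe set of the array was called between them (0%), while 448 had an unadjusted p under 0.05. Direct comparison of RB with HP called AT1G72920 and the probe set of AT5G41740 and AT5G41750, 2 of the 5 members, where 2.84% of all probe sets were called and 0.853% as higher with RB. With the block AT1G59620 was called too, beside 6.85% of all probe sets (2.29% as higher).

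AT1G72920 lies in a run of TIR loci from AT1G72840 to AT1G72950. The platform names 9 probe sets of the run, of which 3 rose with RB, AT1G72920 itself among them, and none fell. Over all probe sets 1.44% were called as higher with RB. The median of the run with RB was 0.35, where the median of all probe sets was 0.02. With HP none rose or fell, with a median of −0.21 where that of all probe sets was −0.02. The rises were all at the end with the higher locus numbers. AT1G72940 had signals of 4.82, 4.91 and 5.31 in the control, 7.67, 7.52 and 7.39 with RB and 5.65, 4.92 and 5.33 with HP. Its RB arrays lay above all others, and it rose by 2.52 (SE 0.19, adjusted p = 4.52e-06) with RB and changed by 0.29 with HP. AT1G72950 went from 4.39, 4.35 and 4.14 to 5.66, 5.17 and 4.93 with RB, a rise of 0.96 (adjusted p = 0.00903, and 0.154 with only the control and RB arrays in the fit), with a change of −0.21 with HP.

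The probe set shared by AT1G72910 and AT1G72930 (TIR), which was named only through the study's lists of changed transcripts, gave 6.26, 5.34 and 6.36 in the control and 8.23, 7.08 and 7.11 with RB. Its change of 1.48 had an adjusted p of 0.0735, of 0.00147 with the block and of 0.0499 without control replicate 3 (range over 14 alternatives 0.00147 to 0.252). The 6 probe sets from AT1G72840 to AT1G72900 did not pass the test with RB, with changes from −0.48 to 0.48. Among them AT1G72890 had signals of 7.70, 7.51 and 8.08 in the control, 7.75, 8.50 and 8.10 with RB and 6.82, 7.18 and 7.04 with HP. Its HP arrays all lay below the control arrays, and its change with HP was −0.75, with an adjusted p of 0.0691 and of 0.0352 with the block. The share of all probe sets with every HP array below the control was not counted, while 6.01% had every HP array above it. The loci of the run are related in sequence, so that signals of neighbouring members may share transcripts where their probes match more than 1 of them, which could not be checked from the annotation used.

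**Figure D3:**
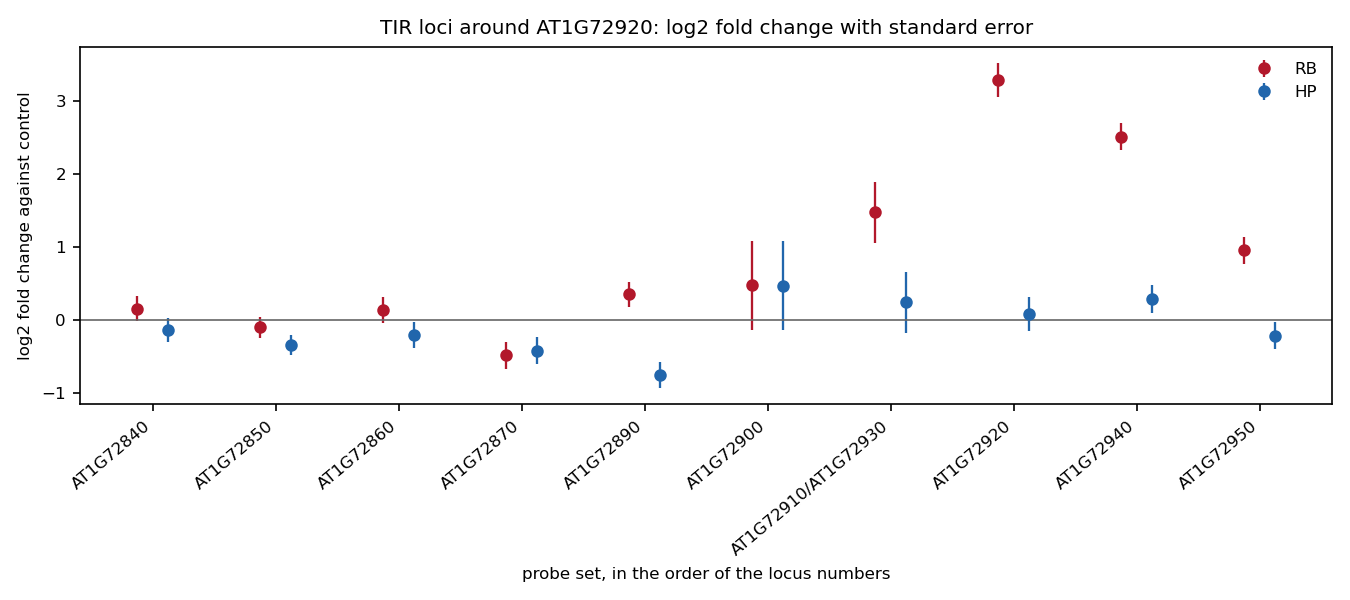
Log2 fold change against the control (y axis, bars are standard errors) with RB and HP for the probe sets of the TIR run, in the order of the locus numbers (x axis). The probe set shared by AT1G72910 and AT1G72930 stands before AT1G72920, and RB values reach 3.29 at AT1G72920 and 2.52 at AT1G72940 while the HP values lie between −0.75 and 0.47.

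The loci next to the other members were looked at in the same way. Taking 10 protein-coding loci on each side of every member, 104 loci in all, the platform named 52 probe sets. Of these 4 rose with RB, where 1.44% of all probe sets were called as higher. Besides AT1G72940 and AT1G72950 these were ZCF37 (AT1G59590), 3 loci from AT1G59620, and AT5G64870, which codes for a flotillin-like protein 2 loci from PROPEP2. ZCF37 had 5.43, 5.24 and 5.73 in the control, 8.51, 7.22 and 7.81 with RB and 7.36, 6.76 and 6.47 with HP. It rose by 2.38 with RB (adjusted p = 4.52e-04), and its HP arrays also lay above the control, with a change of 1.40 (adjusted p = 0.0510, with the block 0.00873, without control replicate 3 0.0281). AT5G64870 rose by 2.01 with RB (adjusted p = 0.00119) and changed by 0.43 with HP. None of the named neighbours of AT5G41740, AT5G41750, AT1G58807 or AT1G59124 was called.

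PROPEP1 (AT5G64900) and PROPEP3 (AT5G64905) lie beside PROPEP2 and varied by array number in the same way. PROPEP3 had 9.29, 5.70 and 7.29 in the control, 10.81, 9.30 and 9.07 with RB and 10.77, 8.79 and 8.81 with HP, and PROPEP1 had 7.11, 6.19 and 6.17, then 8.35, 6.93 and 6.66, then 8.31, 7.89 and 7.16. In both genes every treated array lay above the control array of its number. The changes of PROPEP3 were 2.30 with RB (adjusted p = 0.292, with the block 8.85e-04) and 2.03 with HP (0.418, with the block 0.00445). Without single arrays they ran from 1.44 (without control replicate 2) to 3.23 (without control replicate 1) and from 1.17 to 2.96 (without the same arrays), and against the control of MV and IC they were 4.40 and 4.13 and were called (adjusted p = 0.00956 and 0.0312). With the block they stayed called without any 1 replicate number (adjusted p from 0.00342 to 0.0185). Those of PROPEP1 were 0.82 with RB (0.509, with the block 0.140) and 1.30 with HP (0.317, with the block 0.0439). The call of PROPEP1 with HP under the block was lost without replicate number 1, 2 or 3 (adjusted p = 0.192, 0.307 and 0.0805). In the set of MV and IC, PROPEP3 had 6.69, 4.68 and 4.60 in the control, so that array number 1 was the highest there too. Of the genes that act with the Pep receptors, the kinase BIK1 changed by 0.14 with RB and 0.56 with HP, and RBOHD, the NADPH oxidase that makes apoplastic superoxide, by 0.35 and 0.73. Neither passed the test, and with the block both passed it with HP (adjusted p = 0.0369 and 0.0434). PEPR1 and PEPR2 had no named probe set. Of the 15 loci listed for the Pep pathway, 5 were read, all but BIK1 named only through the study's lists, and none was called without the block in either direction.

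**Figure D4:**
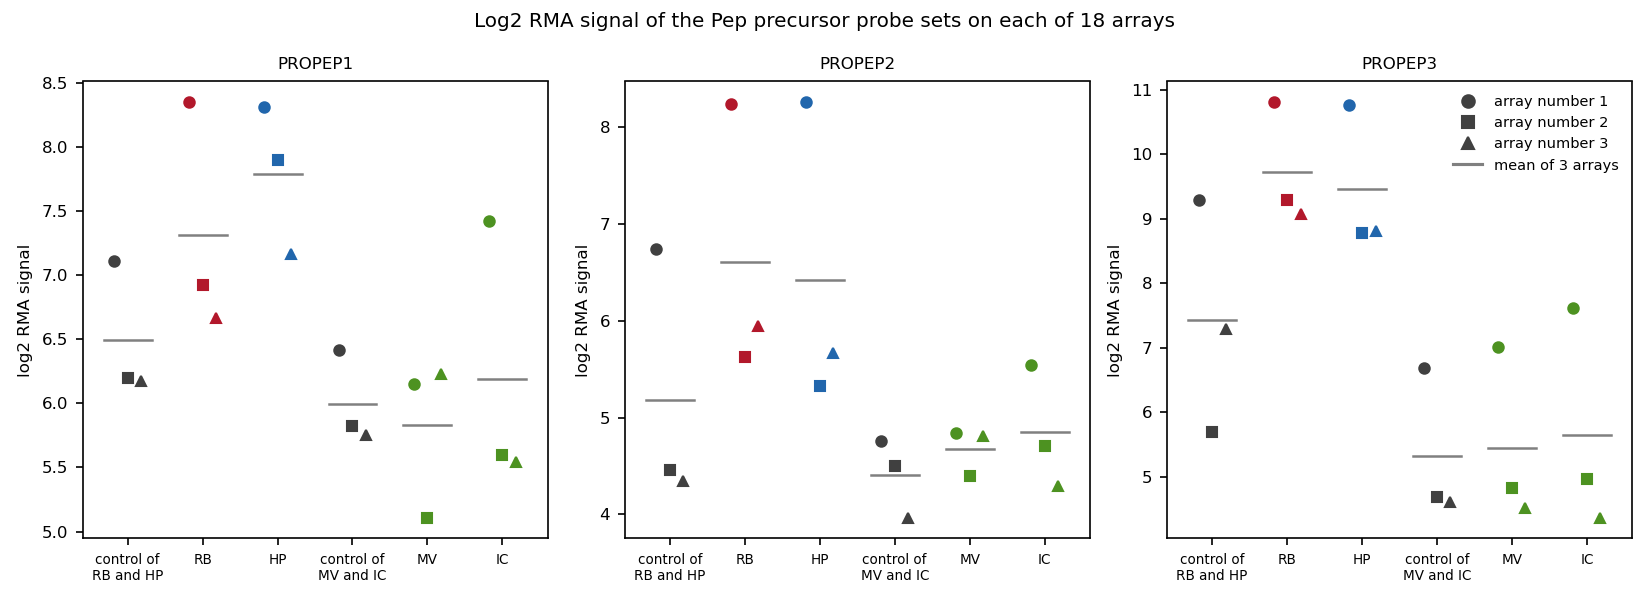
Log2 RMA signal (y axes) of PROPEP1, PROPEP2 and PROPEP3 on the 18 arrays, by group (x axes). The shape of a point marks the array number and grey lines are means of 3 arrays. In all 3 genes the array numbered 1 is the highest of the control, RB and HP groups, and for PROPEP3 it is at 9.29 in the control.

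Of 21 loci listed for signalling from the receptors, 10 probe sets were read, 4 of them named by the platform and 6 only through the study's lists of changed transcripts, which makes those 6 no independent evidence. With RB, 2 of the 4 and 2 of the 6 rose and none fell, where 1.44% of all probe sets were called as higher, and the median over the 10 was 0.91 where that of all probe sets was 0.02. PAD4, the lipase-like partner of EDS1, had 4.76, 3.66 and 3.81 in the control, 6.79, 5.74 and 5.45 with RB and 5.20, 4.01 and 4.07 with HP. It rose by 1.92 (adjusted p = 0.00805), a call lost with only the control and RB arrays in the fit (0.132). SAG101, the partner of EDS1 that works with NRG1, rose by 1.09 (0.0279), the probe set shared by the helpers NRG1.1 and NRG1.2 by 1.01 (0.0182), and the helper ADR1-L2 by 0.65 (0.0165). Each of these last calls was lost in some of the fits that left out 1 array. That of SAG101 was lost without RB replicate 1, control replicate 1 or control replicate 2 (0.83, 1.12 and 0.83), that of NRG1.1 and NRG1.2 without the same arrays (0.85, 0.76 and 1.00), and that of ADR1-L2 without RB replicate 1 or control replicate 2 (0.55 and 0.63). ADR1 changed by 0.81 (adjusted p = 0.0580) and the chaperone HSP90.1 by 2.68 (0.0540). Both passed the test with the block (0.00375 and 1.52e-04), as did 9 of the 10 probe sets in all. In that fit 7.25% of all probe sets were called, 3.56% as higher. EDS1B changed by −0.10, and EDS1 itself had no named probe set. With HP no gene of the list was called without the block, and with it HSP90.1 (2.41, adjusted p = 6.52e-04) and the chaperone partner SGT1A (0.75, 0.0354) were. The changes of PAD4 and SAG101 with HP were 0.35 and 0.43. NRG1.1 and NRG1.2 stood at 0.92 with HP (adjusted p = 0.0704), which was 1.19 (0.00670) without control replicate 3.

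**Figure D5:**
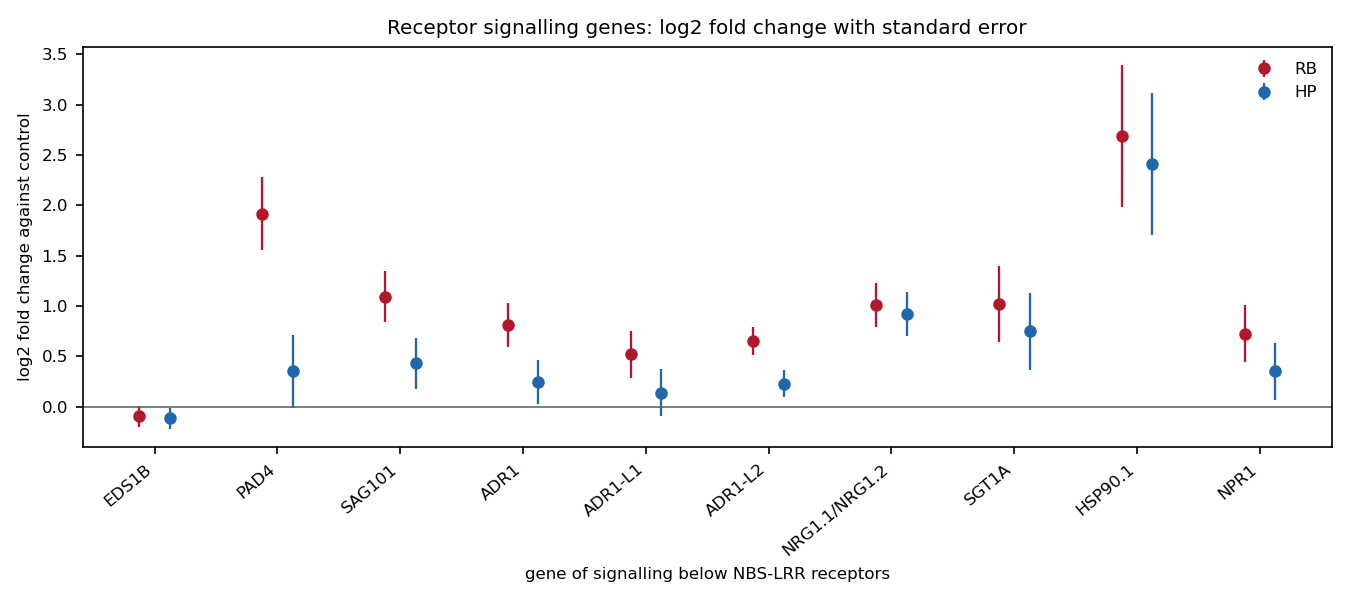
Log2 fold change against the control (y axis, bars are standard errors) with RB and HP for the genes of receptor signalling that could be read (x axis). PAD4 stands at 1.92 with RB and 0.35 with HP, and HSP90.1 at 2.68 and 2.41.

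Most of the other known receptors that could be read did not pass the test. Of 44 loci of well-known NBS-LRR and TIR genes, the platform named 13 probe sets, of which 1 rose with RB, that of NRG1.1 and NRG1.2, and none fell, with a median of 0.06 (all probe sets 0.02, with 1.44% called as higher). The members were chosen with their rise known, so the lists cannot be set against them. None was called with HP. Of the 8 named only through the study's lists, ADR1-L2 and RPM1, the receptor that guards RIN4, rose with RB, and the change of RPM1 (0.91, adjusted p = 0.0489) lost its call when any of the 6 arrays was left out, with values from 0.79 to 0.99. The study's own lists of changed transcripts describe 20 probe sets as TIR, NBS or resistance proteins, and since they were listed for changing in these arrays they are not independent evidence. They include 4 of the 5 members and 4 other probe sets of the TIR run. All 20 lay above 0 with RB, with a median of 1.00, and 10 were called (1.44% of all probe sets as higher), 3 of them members and 2 others of the TIR run, while with HP 16 lay above 0, with a median of 0.25, and none was called. AT1G66090 had 7.44, 5.27 and 6.73 in the control, 10.15, 8.23 and 9.42 with RB and 7.85, 6.63 and 7.96 with HP, a rise of 2.78 with RB (adjusted p = 0.00691, and 0.158 with only the control and RB arrays in the fit). Its change with HP was 1.00 (0.436, with the block 0.0254). AT5G40920 had 4.65, 4.45 and 5.19, then 6.55, 6.24 and 6.83, then 4.76, 4.15 and 4.70, a rise of 1.78 with RB (adjusted p = 7.22e-04) and a change of −0.23 with HP.

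Receptors at the cell surface sense microbial and damage patterns outside the cell. None of those read was called as higher with RB without the block. Of 18 loci listed 12 were read, with a median of −0.43 with RB and 0.38 with HP, where the medians of all probe sets were 0.02 and −0.02. With RB, FER, a receptor kinase for RALF peptides, fell by 0.75 (adjusted p = 0.0225), a call that was lost without RB replicate 2, RB replicate 3 or control replicate 2 (−0.66, −0.71 and −0.67), and no other was called. SOBIR1, the co-receptor of receptor-like proteins, changed by 1.18 with RB and 1.22 with HP, which did not pass the test without the block and passed it with the block (3.88e-04 and 5.52e-04). The changes with RB of LYM1 and LYM3, which bind peptidoglycan, were −0.96 and −0.98, and those of the LysM kinases LYK4 and LYK5, which take part in chitin sensing, 0.52 and 0.69. These 4 did not pass without the block and passed with it (0.00803, 0.00574, 0.0321 and 0.0491). Over all probe sets, 2.96% were called with RB without the block, 1.44% as higher. With the block 7.25% were called with RB, 3.56% as higher, and 2.37% with HP, 1.77% as higher.

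Across the 18 arrays the members correlated with each other with r from 0.56 to 0.92, highest between AT1G72920 and the probe set of AT5G41740 and AT5G41750 and lowest between PROPEP2 and that of AT1G58807 and AT1G59124. The arrays share their groups and controls, so these values describe the pattern and carry no test. Once the group means were subtracted, r was 0.40 between the first pair, and it was 0.79 between PROPEP2 and the probe set of AT5G41740 and AT5G41750. Among the 14371 probe sets with 1 named locus, AT1G72920 was most like BAP1 (r = 0.98), an inhibitor of cell death, ERF5 (0.97) and TEM1 (0.96), both transcription factors. The probe set of AT5G41740 and AT5G41750 was most like CML37 (0.96), a calmodulin-like protein, PAD4 (0.95) and MYB51 (0.95). That of AT1G58807 and AT1G59124 was most like WRKY46 (0.94), AT1G49350 (0.94) and AT5G40910 (0.93). AT1G59620 was most like AT1G19330 (0.93), the MAP kinase MPK3 (0.93) and AT2G03540 (0.92). PROPEP2 was most like AT5G42830 (0.96), AT5G14700 (0.95) and IGMT2 (0.95), whose changes with RB were 0.71, 0.47 and 0.57. BAP1, ERF5, TEM1, PAD4, MYB51, WRKY46, MPK3 and IGMT2 were named only through the study's lists of changed transcripts. Those lists named 895 probe sets because they changed in these arrays, and 7835 probe sets without a locus were not searched. The likeness to these genes is thus no independent evidence.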

How the data were processed

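Total RNA of light-grown ACSC was hybridized to 18 ATH1 arrays. The authors applied RMA (background correction, quantile normalization, probe summary), which gave the deposited log2 signals of 22810 probe sets (affy and RMA in the submitters' processing notes, versions not given in the sources used here). Whether all arrays were normalized in 1 run is not known. Precision is limited by the number of arrays. The 64 control probe sets were left out. All arrays were fitted as 6 groups with limma 3.58.1 in R 4.3.3 (lmFit, contrasts.fit, eBayes), two-sided, p-values were adjusted over 22746 probe sets by Benjamini and Hochberg, and calls were made at 0.05. The fit was first tested on simulated data.

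The replicate number within each set was added as a block in an alternative fit, since each control array is titled for the treated arrays of its number. Deviations of same-numbered arrays correlated with r from 0.000948 to 0.636 among control, RB and HP arrays and from −0.333 to 0.634 in the other set. Other alternatives were the groups fitted apart, renormalization, median centring, a minimum mean signal of 5, a trended robust prior, array weights, the other control, and leaving out each array. Loci came from the platform annotation (14016 probe sets) or the locus columns of the study's tables of changed transcripts (895), and names and neighbours from RefSeq (TAIR10.1). PROPEP2 was named through those tables, which otherwise hold the authors' fold changes and p-values and were not used for values. Named genes were the members, all genes of the Pep and TIR lists with a probe set, up to 6 of each other list by p, and the 3 probe sets most like each member. Members, lists and tests were chosen with earlier results of these data known. The 44 known receptors, the neighbours and the 20 described receptors were lists added after the annotation had been seen. The titles of the treated arrays and the study call the replicates biological. Neither says that they came from separate starting cultures, so p-values measure the spread between these arrays. Figures were drawn with matplotlib 3.10.9 in Python 3.11.15.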

Additional observations from a re-analysis of the deposited data

Results flagged for a closer look

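In a pair of members, the change with RB was larger than with the other dyes at its dose by a test of the difference itself. The study listed most members because they rose with RB in these arrays, so the differences describe them and are not independent evidence. Of all probe sets, 0.299% against MV and 0.374% against IC were called with a higher RB effect. An equal dose is not an equal amount of singlet oxygen. For AT1G72920 the effect of RB exceeded that of MV by 3.42 and that of IC by 3.22 on the log2 scale (limma, adjusted p = 1.54e-04 and 3.26e-04), with RB arrays 1, 2 and 3 all above the other 15 arrays. For the probe set of AT5G41740 and AT5G41750 the differences were 1.71 and 2.05 (adjusted p = 0.0104 and 0.00274), again with all 3 RB arrays above the others. The RB arrays and the arrays of MV and IC have controls of their own, in which the members did not pass the test against each other. AT1G72920 was nevertheless 0.55 higher in the control of RB (limma, unadjusted p = 0.0299, adjusted p = 0.147). Its arrays did not overlap between the controls, and the share of all probe sets in that order was not counted. The probe set of AT5G41740 and AT5G41750 differed by −0.17 between the controls, with overlapping arrays. Groups of 3 arrays are too small for a search for outlying arrays.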

How the results depend on the processing

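Of 623 recalculations of member changes, 592 kept their direction and their side of the threshold, 7 lost the call, 7 gained it and 17 changed sign. The rises of AT1G72920 and of AT5G41740 and AT5G41750 with RB were called in all 13 alternatives each. With the replicate block, members that rose went from 3 to 5 with RB and from 0 to 1 with HP, and in the block fits without replicate 1, 2 or 3 the counts were 3, 3 and 4 with RB and 0, 1 and 1 with HP. A minimum mean signal of 5 keeps only 2 members, without AT1G72920, and left 1 rise with RB and 0 in RB against HP, RB minus MV and RB minus IC. Fitting the groups compared apart left 1 of the 2 calls in RB minus MV. Leaving out single arrays gave 2 to 3 rises with RB, 0 to 1 with HP, 2 to 2 in RB against HP and RB minus MV, 2 to 3 in RB minus IC and 0 to 0 elsewhere. Over all probe sets, the 673 calls with RB became 1649 with the block, 136 with the groups fitted apart, 415 with array weights, 2941 against the other control and 384 to 1395 without single arrays, and the 185 with HP became 539, 36, 121, 914 and 93 to 1018.

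Changes of sign were all in values that did not pass the test. With HP, AT1G72920 went to −0.0295 after median centring and −0.0718 with the block without replicate 1, and AT1G59620, AT1G72950, AT5G40920 and FER to 0.34, 0.16, 0.19 and −0.10 against the other control. With MV, AT5G41740 and AT5G41750 went to −0.0354 with array weights. Without single arrays the changes with HP ran from −0.18 to 0.31 in AT1G72920, −0.29 to 0.0734 in AT1G59620, −0.0763 to 0.56 in AT1G72910 and TIR and −0.0343 to 0.70 in PAD4, the change with MV from −0.0874 to 0.14 in AT5G41740 and AT5G41750, and the changes with IC from −0.12 to 0.29 in AT1G72920, −0.0484 to 0.15 in AT1G59620 and −0.21 to 0.0937 in AT1G58807 and AT1G59124. PROPEP2 ran from −0.63 to 1.11 in RB against HP, −0.44 to 0.18 in MV against IC and −0.00714 to 1.19 between the controls, and AT1G58807 and AT1G59124 from −0.20 to 0.26 between the controls.

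The cause of these shifts was not tested. Groups of 3 arrays, shared probe sets and the lack of a detection call limit all values. So does a light or dark condition that the labels do not give for each array. The study describes its RB and H2O2 profiles as coming from cultures treated in the light. The block cannot compare the controls with each other.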
